A study of Rattus norvegicus with 18 samples.

Results

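The genes described here encode the pyruvate dehydrogenase complex and the enzymes that switch it off and on. They were the kinases Pdk1, Pdk2 and Pdk4, the phosphatases Pdp1 and Pdp2, and the subunits Pdha1, Pdhb and Dlat. Members were found as probe sets, the units of an Affymetrix array that each give 1 expression value, whose platform annotation held 1 gene symbol and that symbol was one of the 8. Of the 8 genes, 7 were found, through 12 of the 31042 probe sets, while Dlat had none under its symbol alone and was not analysed here. Pdp1 and Pdhb had 1 probe set each and the other 5 genes had 2. Where a gene had 2, the one with the higher mean over the 18 arrays stood for it and is called its brightest below, with the other one beside it.

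RNA from primary hepatocytes, the parenchymal cells of liver, was measured on 18 Affymetrix rat genome arrays. The cells came from Wistar rats, were plated and left to attach, and were then kept in medium with insulin and hydrocortisone, a glucocorticoid, which all groups shared. Cultures received EMD, which per the study activates both PPARα and PPARγ, nuclear receptors of lipid metabolism, at 30 or 100 µM, or the vehicle DMSO at 0.1%, for 24 or 72 h. Each of the 6 groups (vehicle, 30 µM and 100 µM at each time) held 3 arrays, described in the methods as biological replicates. The methods state that cells of each animal received each treatment, but the labels do not tie a replicate number to an animal, so p-values measure only the spread between these arrays. The main test left the replicate number out, though same-numbered arrays of a time deviated together in 16 of 18 pairs (correlation over 0.1). Values are log2 expression estimates of the RMA algorithm, and a change is a log2 difference between group means ± its standard error (SE), with 3 arrays in each group. A gene rose or fell where the p of limma's moderated test, two-sided and adjusted by Benjamini-Hochberg over all probe sets tested, was under 0.05.

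Pyruvate dehydrogenase stands in the mitochondrial matrix and turns pyruvate, the end product of glycolysis, into acetyl-CoA for the citric acid cycle or for lipid synthesis. Its kinases phosphorylate the E1α subunit, encoded by Pdha1, and thereby stop the reaction, and its phosphatases remove the phosphate and start it again. Pdk4 is best known from fasting, when fatty acids are the fuel and pyruvate is spared, and it is a known target of PPARα. Pdk2 is the kinase known for its abundance in liver, and Pdk1 for its response to low oxygen. Of the phosphatases, Pdp1 is known from muscle, where calcium activates it, and Pdp2 from liver and fat tissue. An mRNA value says nothing of the phosphorylation or the activity of the complex.

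The arrays were alike in range. Values ran from 2.39 to 14.77, array medians lay between 5.05 and 5.11, and correlations between arrays of a group ran from 0.9875 to 0.9958. The median SE of a change was 0.116, a precision set by the number of arrays. All 6 measured hepatocyte markers lay above the median of the arrays, with means from 10.57 to 14.71, and the 5 endothelial markers lay below it. The mean of the hepatocyte list ran from 13.12 to 13.31 on the vehicle arrays at 72 h, from 12.72 to 12.87 with 30 µM EMD and from 12.61 to 12.80 with 100 µM. At 72 h, 4 of the 6, Apoa1, Cps1, Serpina1 and Ttr, were lower at either dose, Alb and Hnf4a changed by 0.01 to 0.02, and their part in the changes below was not tested. At 24 h 1 of 6 was lower at either dose. List means ran from 5.21 to 6.24 for macrophages (5 markers measured), from 4.40 to 4.93 for stellate cells and fibroblasts (5), from 4.96 to 5.84 for cholangiocytes (3) and from 3.79 to 4.40 for muscle (4). Of the macrophage markers 2 lay above the median of the arrays, the highest at 8.64. In each of the other 3 lists 1 marker did, at 6.17 for stellate cells, 8.81 for cholangiocytes and 5.49 for muscle. With EMD 1 macrophage marker was lower with 100 µM at 72 h and 2 stellate cell markers with 30 µM at 72 h. With 30 µM at 24 h 1 muscle marker was lower and 1 cholangiocyte marker was higher. Of all probe sets 2.01% fell with 30 µM at 24 h and 2.95% with 100 µM. At 72 h 9.22% and 9.68% fell, and with 30 µM at 24 h 3.35% rose. From 24 to 72 h in vehicle 2 macrophage, 2 muscle, 1 stellate cell, 1 endothelial and 1 hepatocyte marker fell, against 10.7% of all probe sets. There 1 cholangiocyte marker rose, against 11.0%. With RNA from whole cultures, fewer cells of a type and less RNA per cell cannot be told apart.

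The stretches of DNA before the start sites of the 3 kinase genes are shown first, since these related enzymes are set side by side below. They are the 250 bases before the transcript start that the RefSeq table of the rat build GRCr8 uses, read on the strand of the gene. Capitals mark matches of GGGCGG, the core of a GC box, of CCAAT, and of ACGTG, the core of a hypoxia response element, each searched on both strands (ATTGG is CCAAT read from the other strand).
Pdk4: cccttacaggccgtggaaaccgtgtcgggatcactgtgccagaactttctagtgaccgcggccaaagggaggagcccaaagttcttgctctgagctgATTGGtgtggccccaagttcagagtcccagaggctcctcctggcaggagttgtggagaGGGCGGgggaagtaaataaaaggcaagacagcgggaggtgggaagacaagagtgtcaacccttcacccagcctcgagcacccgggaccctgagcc
Pdk1: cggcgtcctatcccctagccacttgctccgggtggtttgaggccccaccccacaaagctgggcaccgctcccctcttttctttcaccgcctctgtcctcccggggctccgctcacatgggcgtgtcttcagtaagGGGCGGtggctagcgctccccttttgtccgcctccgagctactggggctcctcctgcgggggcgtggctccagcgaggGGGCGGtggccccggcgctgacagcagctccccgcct
Pdk2: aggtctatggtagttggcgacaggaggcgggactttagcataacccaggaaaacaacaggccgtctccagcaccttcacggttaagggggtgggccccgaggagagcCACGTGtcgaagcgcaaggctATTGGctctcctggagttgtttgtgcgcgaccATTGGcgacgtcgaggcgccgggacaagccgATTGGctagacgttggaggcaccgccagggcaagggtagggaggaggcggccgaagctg

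The Pdk4 window lies at chr4:34568330-34568579 on the minus strand, the Pdk1 window at chr3:77113264-77113513 on the plus strand and the Pdk2 window at chr10:80483913-80484162 on the minus strand. Their GC content was 59.2% for Pdk4, 69.2% for Pdk1 and 62.0% for Pdk2, against a median of 51.2% over all promoters of the table. The last 50 bases of the Pdk1 window and the last 76 of the Pdk2 window lie inside the span that the RefSeq gene table gives these genes (0 bases for Pdk4), and the GC box nearest to the Pdk1 start and the CCAAT nearest to the Pdk2 start lie in that span. The Pdk4 window held 9 CG pairs, Pdk1 held 19 and Pdk2 held 20, with a median of 5 over all. Pdk4 had 1 GC box, 95 to 90 bases before its start, and 1 CCAAT on the other strand. Pdk1 had 2 GC boxes and Pdk2 had 3 CCAAT, all on the other strand. The 2 matches of ACGTG in Pdk2 overlap as CACGTG, 1 on each strand. Of 33469 promoter windows of this length, 30.5% held GGGCGG, 34.0% CCAAT and 16.6% ACGTG. The letters AGGTCA, the core letters many nuclear receptors bind, were in 14.1% of all windows and in none of these 3, and its direct repeat AGGTCANAGGTCA was in 0.0508%. GTAAACA, which forkhead factors bind, was in 3.21% of all windows and TATAAA in 12.9%, and none of the 3 held them. Of the other members, only Pdhb and Pdha1 had an entry in the table. The Pdhb window held GTAAACA once and ACGTG at 2 places on both strands, and the Pdha1 window held 1 GC box.

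Pdk4 was the member that changed most. On its brightest probe set (1378074_at) the vehicle arrays at 24 h were at 5.99, 5.97 and 6.42. With 30 µM EMD at 24 h they were at 12.02, 12.28 and 12.15, and with 100 µM at 12.25, 12.44 and 12.40. At 72 h the vehicle arrays were at 7.67, 8.74 and 8.43, those with 30 µM at 12.76, 12.69 and 12.59, and those with 100 µM at 12.66, 12.67 and 12.70. Every treated array thus lay above every vehicle array at either time. The 3 vehicle arrays at 72 h had the widest spread of the 6 groups (SD 0.55), and the 3 with 100 µM at 72 h the narrowest (SD 0.0168).

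At 24 h Pdk4 rose by 6.03 ± 0.19 with 30 µM EMD (65.1-fold, limma's adjusted p = 2e-12) and by 6.24 ± 0.19 with 100 µM (75.4-fold, 1.4e-12). By size of change these ranked 4 and 3 among all 31042 probe sets. At 72 h it rose by 4.40 ± 0.19 at either dose (21.1-fold, limma's adjusted p = 9.3e-11 with 30 µM and 1.2e-10 with 100 µM). The other probe set (1369150_at) rose by 4.23 and 4.47 at 24 h and by 4.53 and 4.36 at 72 h, each ± 0.19. The 2 probe sets therefore gave like changes at 72 h, while at 24 h the brightest gave the larger one.

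**Figure D1:**
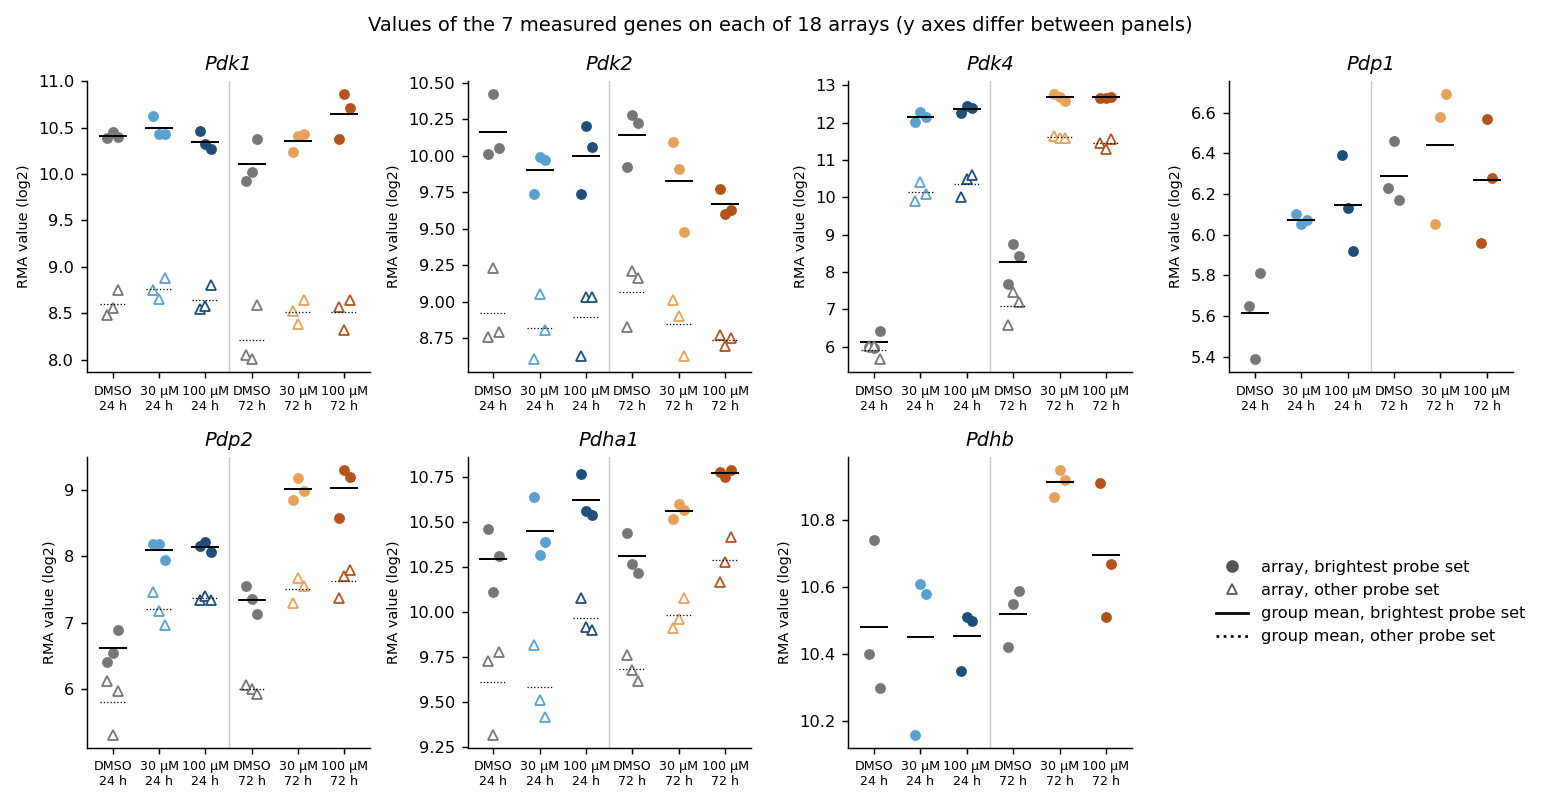
RMA values (log2, y axis, with a range of its own in each panel) of the 7 measured genes on each of the 18 arrays, by dose and time (x axis). Filled circles are the brightest probe set and open triangles the other one, and lines are means of 3 arrays. Pdk4 and Pdp2 on treated arrays lay above the vehicle arrays of the same time on both probe sets.

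In order of level Pdk4 ran from EMD at 72 h (12.68 at either dose), through 100 µM at 24 h (12.36) and 30 µM at 24 h (12.15), to vehicle at 72 h (8.28) and vehicle at 24 h (6.13). Neighbouring groups in this order overlapped only between the doses, at 24 h and at 72 h. The doses differed by 0.21 at 24 h (95% interval -0.19 to 0.61) and by 0.00 at 72 h (-0.41 to 0.40).

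Vehicle cultures themselves gained Pdk4 with time. From 24 to 72 h it rose by 2.15 ± 0.19 (4.45-fold, limma's adjusted p = 1.2e-06) on the brightest probe set and by 1.18 ± 0.19 (2.27-fold, 0.00048) on the other. The difference between the 3' and 5' control probe sets of actin, a sign of RNA length, was 1.31 in the mean on vehicle arrays at 24 h and 0.698 at 72 h, with 0.848 and 0.846 for the 2 doses of EMD at 72 h. The same difference for Gapdh was 0.289 with vehicle at 24 h, 0.266 with 30 µM and 0.215 with 100 µM, and 0.168, 0.172 and 0.141 at 72 h. Vehicle and 100 µM arrays did not overlap in the Gapdh difference at 24 h, nor vehicle and EMD arrays in that of actin at 72 h. The part of these differences in the comparisons of times and of EMD with vehicle was not tested.

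Whether the response to EMD itself differed between the times was tested by an interaction term. On the brightest probe set the change at 72 h was smaller than that at 24 h by -1.62 ± 0.27 with 30 µM (limma's adjusted p = 0.0081) and by -1.84 ± 0.27 with 100 µM (0.0042). On the other probe set these differences were 0.30 ± 0.27 (adjusted p = 0.71) and -0.11 ± 0.27 (0.93), and on the mean of both they were -0.66 (0.25) and -0.97 (0.095). The time dependence of the Pdk4 response was therefore seen on 1 of its 2 probe sets. Both interaction terms use the same vehicle arrays.

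Pdk1 and Pdk2, the other kinases among the members, passed the threshold with 100 µM at 72 h alone, where Pdk1 rose and Pdk2 fell. The kinase Pdk3 was not a member and is described with the related genes below. Pdk1 (1368079_at) was at 9.93, 10.02 and 10.38 on the vehicle arrays at 72 h, at 10.24, 10.41 and 10.43 with 30 µM EMD and at 10.38, 10.86 and 10.71 with 100 µM. The lowest array with 100 µM and the highest vehicle array thus nearly met. Pdk1 rose by 0.54 ± 0.12 with 100 µM at 72 h (1.45-fold, limma's adjusted p = 0.0058), and this call was lost when the arrays of these 2 groups were fitted alone (adjusted p = 0.081). With 30 µM at 72 h the change was 0.25 ± 0.12 (0.21), which passed without vehicle replicate 3 (0.38, limma's adjusted p = 0.044). At 24 h the changes were 0.08 and -0.07. The other probe set of Pdk1 (1390203_at) changed by 0.17, 0.05, 0.30 and 0.29 in the same order of groups (both doses at 24 h, then both at 72 h), none past the threshold. At 24 h the vehicle arrays were at 10.39, 10.45 and 10.40, those with 30 µM at 10.63, 10.43 and 10.43 and those with 100 µM at 10.46, 10.32 and 10.27.

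Pdk2 (1367892_at) was at 9.92, 10.28 and 10.22 on the vehicle arrays at 72 h, at 10.09, 9.91 and 9.48 with 30 µM and at 9.77, 9.60 and 9.63 with 100 µM. All 3 arrays with 100 µM lay below the vehicle arrays, while those with 30 µM overlapped them. Pdk2 fell by 0.47 ± 0.16 with 100 µM at 72 h (1.39-fold, limma's adjusted p = 0.049), close to the threshold. The call was lost under cyclic loess (0.054), with array medians made equal (0.051), on the mean of both probe sets (-0.40, 0.086), and without vehicle replicate 2 (0.17) or 3 (0.13) or 100 µM replicate 2 (0.14) or 3 (0.13). With 30 µM the change was -0.26 at 24 h and -0.31 at 72 h, with 100 µM at 24 h it was -0.16, and the other probe set (1386975_at) gave -0.33 ± 0.15 with 100 µM at 72 h (0.17). At 24 h Pdk2 was at 10.01, 10.42 and 10.05 on the vehicle arrays, at 9.74, 9.99 and 9.97 with 30 µM and at 9.74, 10.20 and 10.06 with 100 µM. Vehicle cultures differed in Pdk2 between the times by -0.02 ± 0.16 (0.95), and in Pdk1 by -0.30 ± 0.12 (0.094). The other probe set of Pdk1 differed by -0.38 ± 0.14 (limma's adjusted p = 0.063). The Pdk1 difference passed with array weights (-0.33, 0.045) and on the mean of its probe sets (-0.34, 0.034). Without vehicle replicate 3 at 72 h it passed as well (-0.44, 0.022). The Pdk1 rise with 100 µM at 72 h was measured against the same vehicle arrays.

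Pdp2, the phosphatase known from liver, rose in the same cultures as Pdk4. Its brightest probe set (1370509_at) was at 6.41, 6.55 and 6.89 on the vehicle arrays at 24 h, at 8.18, 8.18 and 7.94 with 30 µM EMD and at 8.15, 8.22 and 8.07 with 100 µM. At 72 h the vehicle arrays were at 7.56, 7.36 and 7.13, those with 30 µM at 8.85, 9.18 and 8.99 and those with 100 µM at 8.58, 9.30 and 9.19. As for Pdk4, no treated array overlapped the vehicle arrays of its time. Pdp2 rose by 1.48 ± 0.17 with 30 µM at 24 h (2.80-fold, limma's adjusted p = 1.9e-05) and by 1.53 ± 0.17 with 100 µM (2.89-fold, 1.4e-05). At 72 h it rose by 1.65 ± 0.17 (3.15-fold, 2.5e-06) and by 1.67 ± 0.17 (3.18-fold, 2.8e-06). The other probe set (1380045_at) rose by 1.39, 1.56, 1.51 and 1.62, each ± 0.17.

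Pdp2 differed between the doses by 0.05 at 24 h (95% interval -0.31 to 0.40) and by 0.02 at 72 h (-0.34 to 0.37). Its response at 72 h minus that at 24 h was 0.17 with 30 µM (-0.33 to 0.67) and 0.14 with 100 µM (-0.37 to 0.64). In vehicle cultures it rose from 24 to 72 h by 0.74 ± 0.17 (limma's adjusted p = 0.0053), with 0.19 ± 0.17 (0.47) on the other probe set. In order of level the groups with EMD at 72 h came first (9.02 and 9.01), then those with EMD at 24 h (8.15 and 8.10), then vehicle at 72 h (7.35) and at 24 h (6.62), and neighbours overlapped only where they differed in dose alone.

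Pdp1 (1368910_at), the phosphatase known from muscle, did not pass the threshold with EMD. It was at 5.65, 5.39 and 5.81 on the vehicle arrays at 24 h, at 6.10, 6.05 and 6.07 with 30 µM and at 6.39, 6.13 and 5.92 with 100 µM. Neither dose overlapped the vehicle arrays, while the doses overlapped each other, and the changes were 0.45 ± 0.18 (limma's adjusted p = 0.18) and 0.53 ± 0.18 (0.097). At 72 h the vehicle arrays were at 6.23, 6.46 and 6.17, those with 30 µM at 6.05, 6.58 and 6.69 and those with 100 µM at 5.96, 6.57 and 6.28, with changes of 0.15 and -0.02. In vehicle cultures Pdp1 rose with time by 0.67 ± 0.18 (1.59-fold, limma's adjusted p = 0.012), a call lost without vehicle replicate 2 of either time (0.058 each).

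Pdha1 and Pdhb encode the α and β subunits of E1, the enzyme of the complex that binds pyruvate and that the kinases act on. Pdha1 (1371380_at) was at 10.44, 10.27 and 10.22 on the vehicle arrays at 72 h, at 10.52, 10.60 and 10.57 with 30 µM and at 10.78, 10.75 and 10.79 with 100 µM. The 3 groups did not overlap and stood in the order of the dose. Pdha1 rose by 0.46 ± 0.10 with 100 µM (1.38-fold, limma's adjusted p = 0.0047) and changed by 0.25 ± 0.10 with 30 µM (0.12). The difference between the doses, 0.21 (95% interval -0.01 to 0.43, adjusted p = 0.36), did not pass the test. The other probe set (1383698_at) rose by 0.60 ± 0.12 with 100 µM at 72 h (1.52-fold, limma's adjusted p = 0.0023). At 24 h Pdha1 was at 10.46, 10.11 and 10.31 with vehicle, at 10.64, 10.32 and 10.39 with 30 µM and at 10.77, 10.56 and 10.54 with 100 µM, with changes of 0.15 and 0.32 ± 0.10 (0.087 for the latter). That latter change passed the threshold without vehicle replicate 1 (0.41, limma's adjusted p = 0.045) and with the replicate number as a block (0.32, 0.032). Time in vehicle culture changed Pdha1 by 0.01 ± 0.10 (0.94).

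Pdhb (1371388_at) was at 10.42, 10.55 and 10.59 on the vehicle arrays at 72 h, at 10.87, 10.95 and 10.92 with 30 µM and at 10.91, 10.51 and 10.67 with 100 µM. The arrays with 30 µM lay above the vehicle arrays and those with 100 µM overlapped them. The changes were 0.39 ± 0.13 (1.31-fold, limma's adjusted p = 0.053) and 0.18 ± 0.13 (0.43), and neither passed the threshold. The former passed under 6 of 8 other settings, with adjusted p from 0.02 to 0.043. With any 1 of the 6 arrays compared left out, it did not pass. At 24 h Pdhb was at 10.40, 10.74 and 10.30 with vehicle, at 10.16, 10.61 and 10.58 with 30 µM and at 10.35, 10.51 and 10.50 with 100 µM, and the changes were -0.03 and -0.02 with groups that overlapped. Between the times vehicle cultures differed by 0.04 ± 0.13 (0.87).

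**Figure D2:**
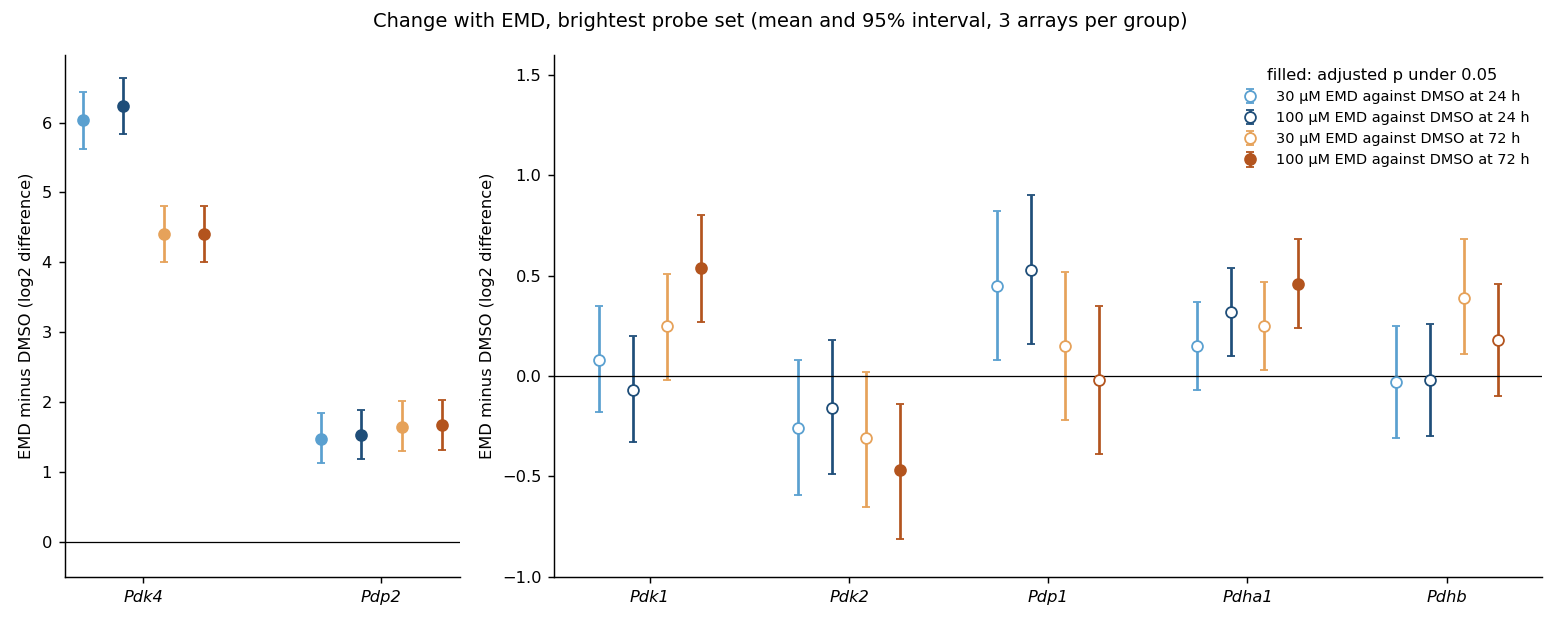
Change with EMD against vehicle (log2 difference, y axis) of the brightest probe set of each measured gene (x axis), with 95% intervals from the fit and 3 arrays in each group; the y axes of the 2 panels differ. Filled points have an adjusted p under 0.05: all 4 comparisons for Pdk4 and Pdp2, and 100 µM at 72 h for Pdk1, Pdk2 and Pdha1.

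Counted over the 7 genes, 2 rose and 0 fell with 30 µM at 24 h, where 3.35% of all probe sets rose and 2.01% fell. With 100 µM at 24 h 2 rose and 0 fell, against 3.06% and 2.95% of all. With 30 µM at 72 h 2 rose and 0 fell, against 7.88% and 9.22%. With 100 µM at 72 h 4 rose and 1 fell, against 7.42% and 9.68%. The 2 genes that rose in each comparison were Pdk4 and Pdp2, joined with 100 µM at 72 h by Pdk1 and Pdha1. The median change of the 7 was 0.15, 0.32, 0.25 and 0.46 in this order, and that of all probe sets lay between -0.03 and 0.02. Both doses of a time were set against the same vehicle arrays. The shares of all probe sets include dim ones, while group means of the members lay at percentile 56.6 or higher. Larger shares were called among the 15521 probe sets left when dim ones were taken out. Of these, 1132 rose and 685 fell with 30 µM at 24 h, and 2035 rose and 2836 fell with 100 µM at 72 h.

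On their brightest probe sets 0 of the 7 members passed the test between the doses. At 24 h limma called 0 of the 7 and 0 of all probe sets (0%), with 0 of 7 and 1421 of 31042 at an unadjusted p under 0.05. At 72 h it called 0 of the 7 and 3.10% of all, with 1 of 7 and 4761 of 31042 at an unadjusted p under 0.05. That 1 member was Pdk1 (0.29 ± 0.12, limma's adjusted p = 0.27), and its other probe set gave -0.01 ± 0.14. The other probe set of Pdha1 differed between the doses by 0.38 ± 0.12 at 24 h and by 0.31 ± 0.12 at 72 h (unadjusted p = 0.0066 and 0.023, limma's adjusted p = 0.92 and 0.22), with groups that did not overlap at either time. Without 100 µM replicate 1 the Pdk1 difference was 0.42 (limma's adjusted p = 0.042). The responses differed between the times for 1 of 7 members, Pdk4, at either dose, against 0.941% of all probe sets with 30 µM and 0.693% with 100 µM. Pdk1 had a difference of 0.60 ± 0.18 between its responses to 100 µM at 72 and 24 h (0.15), which passed without 100 µM replicate 1 at 72 h (0.74, limma's adjusted p = 0.026) and without vehicle replicate 3 at 72 h (0.74, 0.05). In vehicle cultures 3 of 7, Pdk4, Pdp1 and Pdp2, rose between 24 and 72 h and 0 fell, against 11.0% and 10.7% of all.

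**Figure D3:**
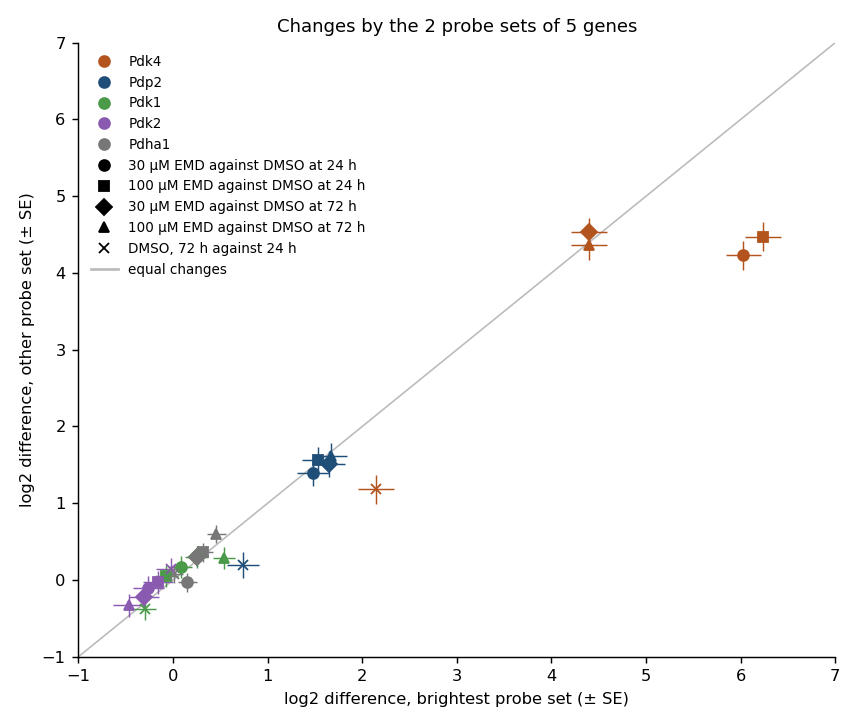
Change on the brightest probe set (x axis) and on the other probe set (y axis) of the 5 genes with 2 probe sets, as log2 differences ± SE for 4 comparisons of EMD with vehicle and for vehicle over time; the grey line marks equal changes. Pdk4 at 24 h stands away from the line, with 6.03 and 6.24 on one probe set and 4.23 and 4.47 on the other.

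Genes whose pattern lay nearest to that of Pdk4 were found by the root mean square difference over the 18 arrays, after each probe set was centred on its own mean. For scale, the SD of Pdk4 over the arrays was 2.57. The nearest was Slc34a2, a sodium-dependent phosphate transporter, at 0.515. Next came Cpt1b at 0.618, the carnitine palmitoyltransferase known from muscle, and Ehhadh at 0.649, the bifunctional enzyme of peroxisomal β-oxidation. Cyp4a1, a fatty acid ω-hydroxylase, stood at 0.682 and Aig1 at 0.772. With 30 µM at 24 h Slc34a2 changed by 5.57, Cpt1b by 5.17 and Ehhadh by 7.34, and with time in vehicle by 1.61, 0.31 and 1.99. These genes were picked for their likeness to Pdk4, so their nearness is a description with no test.

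**Figure D4:**
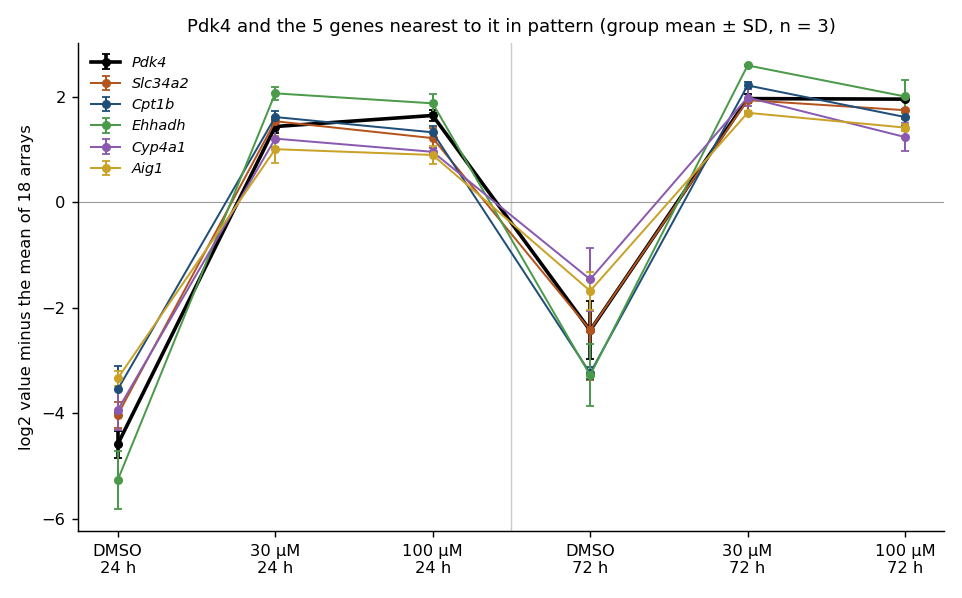
Log2 value minus the mean of 18 arrays (y axis; points are group means, bars SD, n = 3) of Pdk4 and the 5 genes nearest to it in pattern, in the 6 groups (x axis). All 6 genes had their lowest mean with vehicle at 24 h and all lay above 0 in the 4 groups with EMD; with time in vehicle Cpt1b changed by 0.31 and Pdk4 by 2.15.

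Around Pdp2, whose SD over the arrays was 0.878, the nearest were Ly6i (0.246), Mpp7 (0.275) and Myo5b (0.279). The other members that passed a test with EMD varied little, and their nearest genes lay close for that reason as well. Near Pdk1 (SD 0.208) were Vps33a (0.107), Trit1 (0.118) and Gabarap (0.121). Near Pdk2 (SD 0.244) were Lrp3 (0.120), Dennd1a (0.138) and Amigo3 (0.149), and near Pdha1 (SD 0.197) were Sh3glb1 (0.0881), Smurf2 (0.104) and Fam114a2 (0.113).

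Related genes were followed in 5 lists, whose counts stand beside the shares of all probe sets, of which 3.35%, 3.06%, 7.88% and 7.42% rose and 2.01%, 2.95%, 9.22% and 9.68% fell in the same 4 comparisons. These shares include dim probe sets and were larger with dim ones left out, as given above. Of the other parts of the complex and its cofactors, 11 genes were listed and 7 were measured. In the 4 comparisons (both doses at 24 h, then both at 72 h) 0, 1, 3 and 3 rose and 0, 0, 2 and 0 fell. Between the times 0 of 7 differed in response at either dose, against 0.941% of all probe sets with 30 µM and 0.693% with 100 µM. The other lists had 0 there as well. Pdhx, which holds the E3 enzyme to the core, rose by 0.49 ± 0.12 and 0.59 ± 0.12 at 72 h. Dld, the E3 enzyme that this complex shares with its relatives, rose by 0.36 ± 0.10 with 100 µM at 24 h and by 0.41 and 0.47 at 72 h, and the call at 24 h was lost in a fit of these groups alone (limma's adjusted p = 0.2), without vehicle replicate 3 (0.17) and without 100 µM replicate 1 (0.15), 2 (0.085) or 3 (0.074). Lias, which makes the lipoyl group that the E2 enzyme carries, rose by 0.53 ± 0.12 and 0.49 ± 0.12 at 72 h. Pdhx with 100 µM and Lias at both doses lost their calls in a fit of the groups compared alone (adjusted p from 0.053 to 0.07), and Lias with 100 µM also without vehicle replicate 1 (0.053). The kinase Pdk3 fell by 0.50 ± 0.13 with 30 µM at 72 h (limma's adjusted p = 0.014), but its change with 100 µM was 0.11, and the call was lost without vehicle replicate 1 (0.084) or 30 µM replicate 2 (0.072). Its other probe set changed by -0.57 and -0.34 at 72 h. The median change of the 7 genes was 0.21, 0.19, 0.25 and 0.35.

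Of 14 genes that bring pyruvate to the complex or lead it elsewhere, 13 were measured, of which 5, 5, 6 and 5 rose and 2, 2, 3 and 3 fell in the 4 comparisons. Pklr, the pyruvate kinase of liver that makes pyruvate, fell in all 4, with changes of -2.17, -2.64, -2.36 and -3.23, each ± 0.26, and its other probe set changed by -2.13, -2.41, -1.47 and -1.35. Me1, the malic enzyme that makes pyruvate and NADPH in the cytosol, rose by 1.64, 1.90, 2.62 and 2.88, each ± 0.21. Pc, pyruvate carboxylase, which turns pyruvate into oxaloacetate, rose by 1.73, 1.19, 1.84 and 1.18, each ± 0.22. The 2 genes of the mitochondrial pyruvate carrier moved apart. Mpc2 rose by 1.45, 1.39, 1.69 and 1.52, each ± 0.09, while Mpc1, named here after its values were seen, fell in all 4 (-0.38, -0.47, -0.45 and -0.47, each ± 0.09). The Mpc1 call with 30 µM at 24 h was lost when these groups were fitted alone (0.096), without vehicle replicate 1 (0.069) and without 30 µM replicate 2 (0.077). The median change of the 13 was 0.13, 0.26, -0.09 and 0.29.

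The sister complexes, which act on 2-oxoglutarate, 2-oxoadipate and the branched-chain 2-oxo acids, were all measured (8 of 8 genes). In the 4 comparisons 3, 2, 4 and 3 rose and 1, 1, 1 and 1 fell. Ppm1k, the phosphatase that activates the branched-chain complex, rose by 1.85, 2.04, 2.14 and 2.05, each ± 0.35. Its other 2 probe sets changed by 0.11 and 0.41 with 30 µM at 24 h, and by 0.77 and 1.83 at 72 h. On the mean of its 3 probe sets its changes at 24 h were 0.79 (limma's adjusted p = 0.1) and 0.89 (0.055). Dbt, the E2 enzyme of the branched-chain complex, rose by 0.63, 0.81, 0.80 and 1.20, each ± 0.14, while its other probe set changed by 0.07, 0.17, 0.47 and 0.46. The Dbt call with 30 µM at 24 h was lost on the mean of its probe sets (0.35, limma's adjusted p = 0.076), without 30 µM replicate 1 (0.062) and without vehicle replicate 3 (0.051). Bckdha, the E1α subunit of that complex, rose with 30 µM by 0.77 ± 0.16 and 0.92 ± 0.16 and changed with 100 µM by 0.48 and 0.24. Dhtkd1, an E1 enzyme for 2-oxoadipate, fell at both doses at 24 h (-0.82 and -0.95, each ± 0.21) and with 100 µM at 72 h (-1.09 ± 0.21), and changed by -0.42 with 30 µM at 72 h, which passed without vehicle replicate 1 (-0.67, limma's adjusted p = 0.03). Its calls at 24 h were lost without vehicle replicate 2 (limma's adjusted p = 0.13 and 0.058), and that with 30 µM also without vehicle replicate 1 (0.055), without 30 µM replicate 1 (0.13) or 2 (0.071) and in a fit of these groups alone (0.055). The median change of the 8 was 0.38, 0.34, 0.35 and 0.12.

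**Figure D5:**
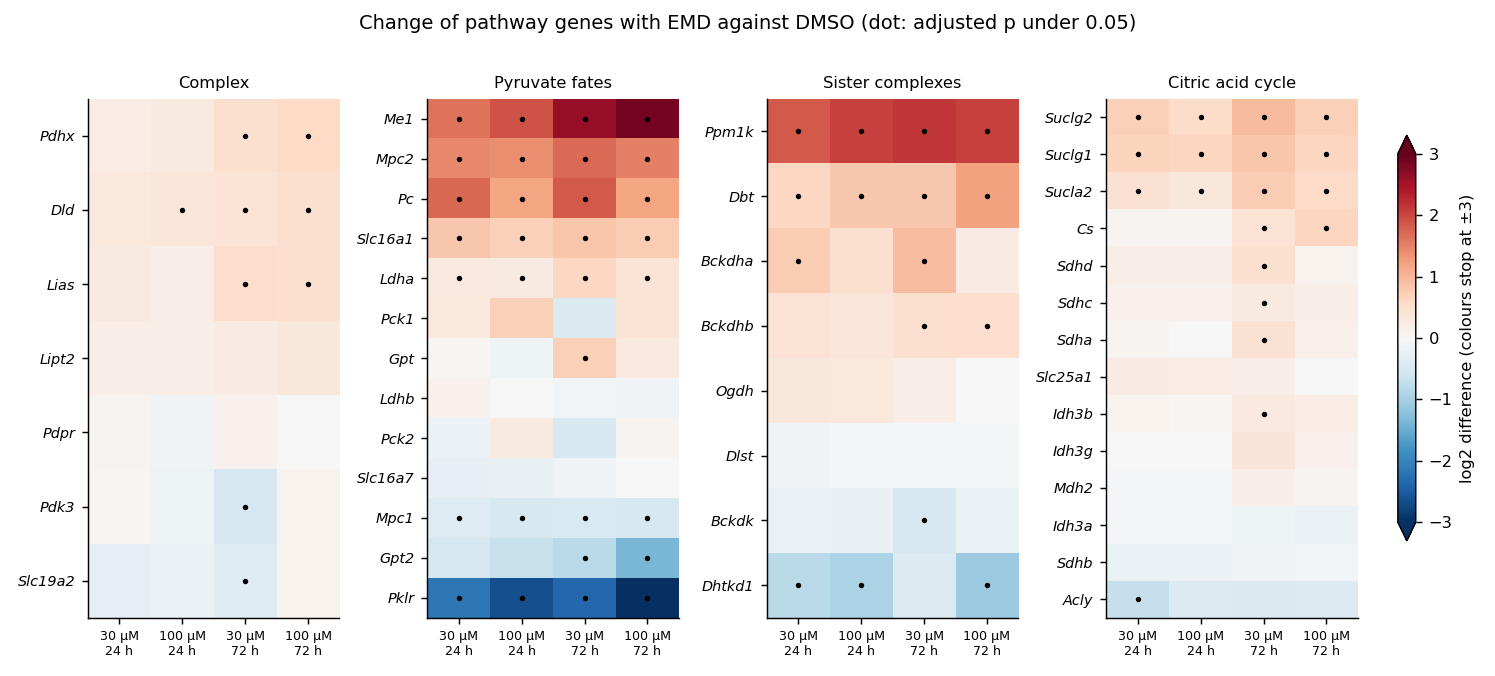
Change with EMD against vehicle (colour, log2 difference, red higher and blue lower, colours stop at ±3) of the measured genes of 4 pathway lists (rows, brightest probe set) at each dose and time (columns); a dot marks an adjusted p under 0.05. Pklr fell and Me1, Mpc2 and Pc rose in all 4 comparisons.

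Of the genes of the citric acid cycle and of acetyl-CoA use, 14 of 16 were measured, of which 3, 3, 8 and 4 rose and 1, 0, 0 and 0 fell. The 3 that rose in all comparisons were subunits of succinyl-CoA synthetase, the enzyme of the cycle that makes ATP or GTP directly. Suclg2 rose by 0.71, 0.55, 0.94 and 0.72, each ± 0.09, and Suclg1 by 0.67, 0.65, 0.83 and 0.65, each ± 0.08. Sucla2 rose by 0.46, 0.34, 0.77 and 0.58, each ± 0.08, while its other probe set changed by -0.02, -0.06, 0.16 and 0.13, and on their mean the calls at 24 h were lost (limma's adjusted p = 0.12 and 0.35). Its call with 100 µM at 24 h was also lost in a fit of these groups alone (0.092) and without replicate 2 or 3 of either group (0.056 to 0.084). Acly, which releases acetyl-CoA from citrate in the cytosol, fell by 0.68 ± 0.15 with 30 µM at 24 h, and this call was lost in a fit of these groups alone (limma's adjusted p = 0.056), without vehicle replicate 2 (0.054) or 3 (0.067) and without 30 µM replicate 2 (0.063). Its changes in the other comparisons were -0.42, -0.44 and -0.42, which did not pass (0.14, 0.057 and 0.068). They passed with dim probe sets left out at 72 h (0.041 and 0.049), with array weights at 72 h (0.026 and 0.023), and without single arrays, such as vehicle replicate 1 for 100 µM at 24 h (-0.60, 0.017). The median change of the 14 was 0.09, 0.05, 0.34 and 0.15.

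Genes of known regulators of the kinases were all measured (12 of 12), and 0 rose or fell at 24 h, where 3.35% and 3.06% of all probe sets rose and 2.01% and 2.95% fell. At 72 h 2 rose and 0 fell with 30 µM, and 2 rose and 1 fell with 100 µM, against 7.88% and 7.42% of all probe sets that rose and 9.22% and 9.68% that fell. Esrra, the estrogen-related receptor α, rose by 0.32 ± 0.08 and 0.70 ± 0.08. Irs2, an adaptor of the insulin receptor, rose by 0.54 ± 0.17 with 30 µM, Pparg by 0.72 ± 0.24 with 100 µM (limma's adjusted p = 0.049), and Ppargc1a, the coactivator PGC-1α, fell by 0.83 ± 0.22 with 100 µM. The Irs2 call was lost without any 1 of the 6 arrays compared (limma's adjusted p = 0.068 to 0.099). That of Pparg was lost without vehicle replicate 1 (0.21) or 2 (0.11), without 100 µM replicate 2 (0.2) or 3 (0.16) and under 5 other settings (0.05 to 0.13). That of Ppargc1a was lost without vehicle replicate 2 (0.075) or 3 (0.07), without 100 µM replicate 2 (0.061) or 3 (0.059) and in a fit of these groups alone (0.1). With 30 µM at 72 h, Ppargc1a (-0.56) did not pass, and passed with array weights (-0.69, 0.015), on the mean of its probe sets (-0.60, 0.048) and without vehicle replicate 1 (-0.88, 0.002). Irs2 with 100 µM at 72 h (0.44) passed with array weights (0.034) and without 100 µM replicate 1 (0.58, 0.032). The median change of the 12 was 0.01, -0.05, 0.19 and 0.15.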

How the data were processed

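RNA of 18 cultures of rat primary hepatocytes was hybridised to Affymetrix rat genome arrays, 1 per culture, and groups were read from the labels. Deposited were log2 values from RMA, run by the authors. RMA corrects background, equalises the distributions of the arrays and summarises each probe set, which takes out any change common to most genes and shrinks differences among low values. No version of it was given in the sources used here. The 57 control probe sets were left out of 31099. Platform annotation gave 20826 probe sets 1 symbol, 436 several and 9780 none.

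These values were fitted with limma 3.58.1 under R 4.3.3 (lmFit, eBayes, 6 groups in 1 fit), with Benjamini-Hochberg adjustment over 31042 probe sets and a threshold of 0.05. The fit was tested on simulated data. Intervals are at 95%, not adjusted for the number of genes. Alternatives were cyclic loess, equal array medians, leaving out dim probe sets, fitting only the groups compared, an intensity trend with robust moderation, array weights, the replicate number as a block, the mean of a gene's probe sets, and leaving out each array. Named from each pathway list were up to 4 called genes with the largest change, Mpc1 being the exception. Members and lists were chosen with earlier results of these data known.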

Additional observations from a re-analysis of the deposited data

Results flagged for a closer look

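The response of Pdk4 to EMD differed between the times by an interaction test on its brightest probe set. The change against vehicle was smaller at 72 h than at 24 h, with a difference of -1.62 for 30 µM and -1.84 for 100 µM. The level with EMD did not fall between the times. It went from 12.15 to 12.68 with 30 µM and from 12.36 to 12.68 with 100 µM, while vehicle rose by 2.15. The other probe set of Pdk4 gave 0.30 and -0.11, neither past the threshold. On the mean of both probe sets the differences were -0.66 (limma's adjusted p = 0.25) and -0.97 (0.095), and neither passed.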

How the results depend on the processing

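The calls and directions of Pdk4 and Pdp2 with EMD held under every setting and without any single array. Over 63 results of single members, 486 of 504 alternative values kept their call and direction, 6 lost the call and 12 gained it; with an array left out, 450 of 462 kept it, 6 lost it and 6 gained it. None reversed while called. The number of called members rose from 2 to 4 with array weights for 30 µM at 72 h (Pdha1 and Pdhb added). For 100 against 30 µM at 72 h it was 1 with array weights and 0 to 1 with an array left out, against 0. For the 100 µM response between the times it was 2 with array weights, 0 on the mean of a gene's probe sets and 1 to 2 with an array left out, against 1. For the 30 µM response it was 0 on that mean, against 1.

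With the replicate number as a block, Pdha1 with 100 µM at 24 h (0.32, limma's adjusted p = 0.032) and Pdhb with 30 µM at 72 h (0.39, 0.042) gained a call and no other member call changed. Of the pathway genes named, Bckdha with 100 µM at 24 h (0.48, 0.046) and Pparg with 30 µM at 72 h (0.49, 0.019) gained one. Same-numbered arrays of a time deviated together in 16 of 18 pairs (correlation over 0.1, lowest 0.00577), and 17 of 18 arrays were closest to their own number. The methods describe each treatment on cells of each animal, but no label ties a number to an animal. The main fit did not use the number, so its p-values leave out what same-numbered arrays shared (median correlation 0.371). The block moved the count of all called probe sets from 963 to 1625 for the doses at 72 h, from 292 to 924 for the 30 µM response, from 215 to 534 for the 100 µM response and from 0 to 3 for the doses at 24 h.

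Array weights gave 8192 called probe sets for 100 µM at 72 h against 5308, 3336 against 963 for the doses at 72 h, 641 against 292 and 1090 against 215 for the 2 responses, and 9 against 0 for the doses at 24 h. Fitting only the groups compared gave 3305 for 100 µM at 72 h, 141 for the doses at 72 h, 76 for the 100 µM response and 3997 against 6738 for vehicle over time. Leaving out replicate 2 of the treated group gave 1027 against 1664 for 30 µM at 24 h and 1207 against 1867 for 100 µM at 24 h. Single arrays left out gave 141 to 2541 for the doses at 72 h, 123 to 475 for the 30 µM response and 57 to 800 for the 100 µM response. The 3 arrays in a group limit the precision, and RMA gives no detection call.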
